A study of Drosophila melanogaster and Drosophila melanogaster
Drosophila virilis and Drosophila virilis with 9 samples.

Results

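Cells with transcripts of the pair-rule gene *ftz* were compared with cells with transcripts of the pair-rule gene *eve* in dissociated *Drosophila melanogaster* embryos at gastrulation. Droplet-based single-cell RNA sequencing (Drop-seq) tags each captured mRNA with a unique molecular identifier (UMI), and every barcode with at least 5000 UMIs, of which at least 90% lay on *D. melanogaster* genes, was thinned at random to exactly 5000. Cells were chosen by their own *ftz* and *eve* counts. A cell counted as an *ftz* cell when it then held at least 2 *ftz* UMIs and 0 of *eve*, and as an *eve* cell when it held at least 2 *eve* UMIs and 0 of *ftz*. Of 3880 *D. melanogaster* cells, 731 were *ftz* cells and 121 were *eve* cells. The remainder were 2276 cells with neither transcript, 113 with at least 1 UMI of both, 401 with 1 *ftz* UMI alone and 238 with 1 *eve* UMI alone.

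Pair-rule genes divide the trunk of the fly embryo into its periodic units. They are read out in stripes around the embryo, *ftz* and *eve* in alternate units called parasegments, and both encode homeodomain transcription factors. At this age the stripes position the segment polarity genes, such as *engrailed* (*en*), and stripes of cell surface receptors under pair-rule control are known to orient the cell rearrangements that lengthen the germ band.

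The 7 libraries were made from hand-picked stage 6 embryos of a 1 h egg collection that were aged for 2 h 30 min at room temperature, dissociated, passed through a 20 µm strainer and fixed in 80% methanol in PBS. All *D. melanogaster* embryos, and so both groups of cells, were y1 w1118 and carried the transgenes P{vnd::dsRED} and P{st.2::Gal4}. Replicates 1 and 2 were mixed-species libraries, to which *D. virilis* embryos contributed cells as well, and replicates 3 to 7 held *D. melanogaster* alone. The labels do not say whether the 7 libraries came from separate embryo collections, so p-values measure the spread between these libraries, which may be technical in part. Both sides were present in each library, with 60 to 150 *ftz* cells and 7 to 32 *eve* cells. Full UMI counts of the cells were summed per library and side, which gave 1096550 to 2976568 UMIs per library for *ftz* cells and 102641 to 861401 for *eve* cells. Replicate 2 had the fewest *eve* cells (7) and the fewest *eve*-side UMIs. Levels are given in CPM, the UMIs of a gene scaled to 1000000 UMIs of the same library and side, which are not corrected for transcript length and so are compared between sides and not between genes. No barcode on either side was shared by libraries.

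The levels of *ftz* and *eve* themselves follow from the choice of cells and are given as a description. *ftz* (3R, 6864324 to 6866244, plus strand, BDGP6.54 annotation) averaged 617.5 CPM in *ftz* cells (567 to 717 over the libraries) and 15.5 CPM in *eve* cells. *eve* (2R, 9979319 to 9980795, plus strand) averaged 259 CPM in *eve* cells (205 to 363) and 18 CPM in *ftz* cells. The *ftz* side was the broader class. It took up 19.3% ± 1.96 of the cells (SD, n = 7 libraries) against 3.37% ± 1.66 for the *eve* side, and its cells held a median of 3 and up to 17 *ftz* UMIs, where *eve* cells held a median of 2 and at most 5 *eve* UMIs. At the edge of the rule, 235 *ftz* cells and 88 *eve* cells held exactly 2 UMIs. Cells with exactly 2 *ftz* UMIs had 385.9 CPM of *ftz* in their full counts and those just outside, with 1 UMI, had 217.0; the same values for *eve* were 219.1 and 139.8 CPM.

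*D. virilis* barcodes gave a measure of background for the mixed-species libraries alone. Free RNA was not told apart there from other sources of such UMIs. Of 1209 such barcodes with at least 5000 UMIs, which had median depths of 7812.5 and 11409 UMIs in replicates 1 and 2, 0.0827% held at least 2 UMIs of *D. melanogaster* *ftz*. None held at least 2 of *eve*, a count that allows up to 0.305% (exact 95% interval; counting error only). At least 1 UMI was seen in 1.32% of them for *ftz* and 0.414% for *eve*. Barcodes with less than 90% of their UMIs on 1 species made up 2.29% of replicate 1 and 0.814% of replicate 2 at this depth.

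Of 5069 genes tested with *ftz* and *eve* left out, 47 (0.927%) differed between the sides at a false discovery rate of 0.05 in edgeR's quasi-likelihood test with the library as a block. *ftz* cells had the higher level for 32 genes (0.631%) and *eve* cells for 15 (0.296%). Of the 47, 38 had 1 direction in all 7 libraries, against 126 of all genes tested (2.49%), and 13 had *ftz*-side and *eve*-side values that did not overlap, against 19 of all genes (0.375%). Of the 47, 27 changed by more than 2-fold, 22 of them towards *ftz* cells. Of the 46 genes placed on the annotation, 14 overlap another gene there, so that reads of either could count for both, with *ImpL2*, *be*, *pxb* and *CR46003* doing so on the same strand. Which cells enter each side depends on the random thinning, since most *eve* cells sit at the threshold. In 10 further draws, added after the first results had been seen, the number of *eve* cells was 94 to 113 and the number of genes that passed was 17 to 45 (median 32.5), so the 121 cells and 47 genes of the draw reported here lie above those of all 10. The 10 genes that passed in every draw were *trn*, *comm*, *comm2*, *ken*, *run*, *disco* and the non-coding *CR45900*, higher in *ftz* cells, and *Tollo*, *h* and *pxb*, higher in *eve* cells. Of the 47, 21 passed in at least 5 of the further draws and 6 in none, and 41 kept their direction in all of those in which they were tested.

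**Figure D1:**
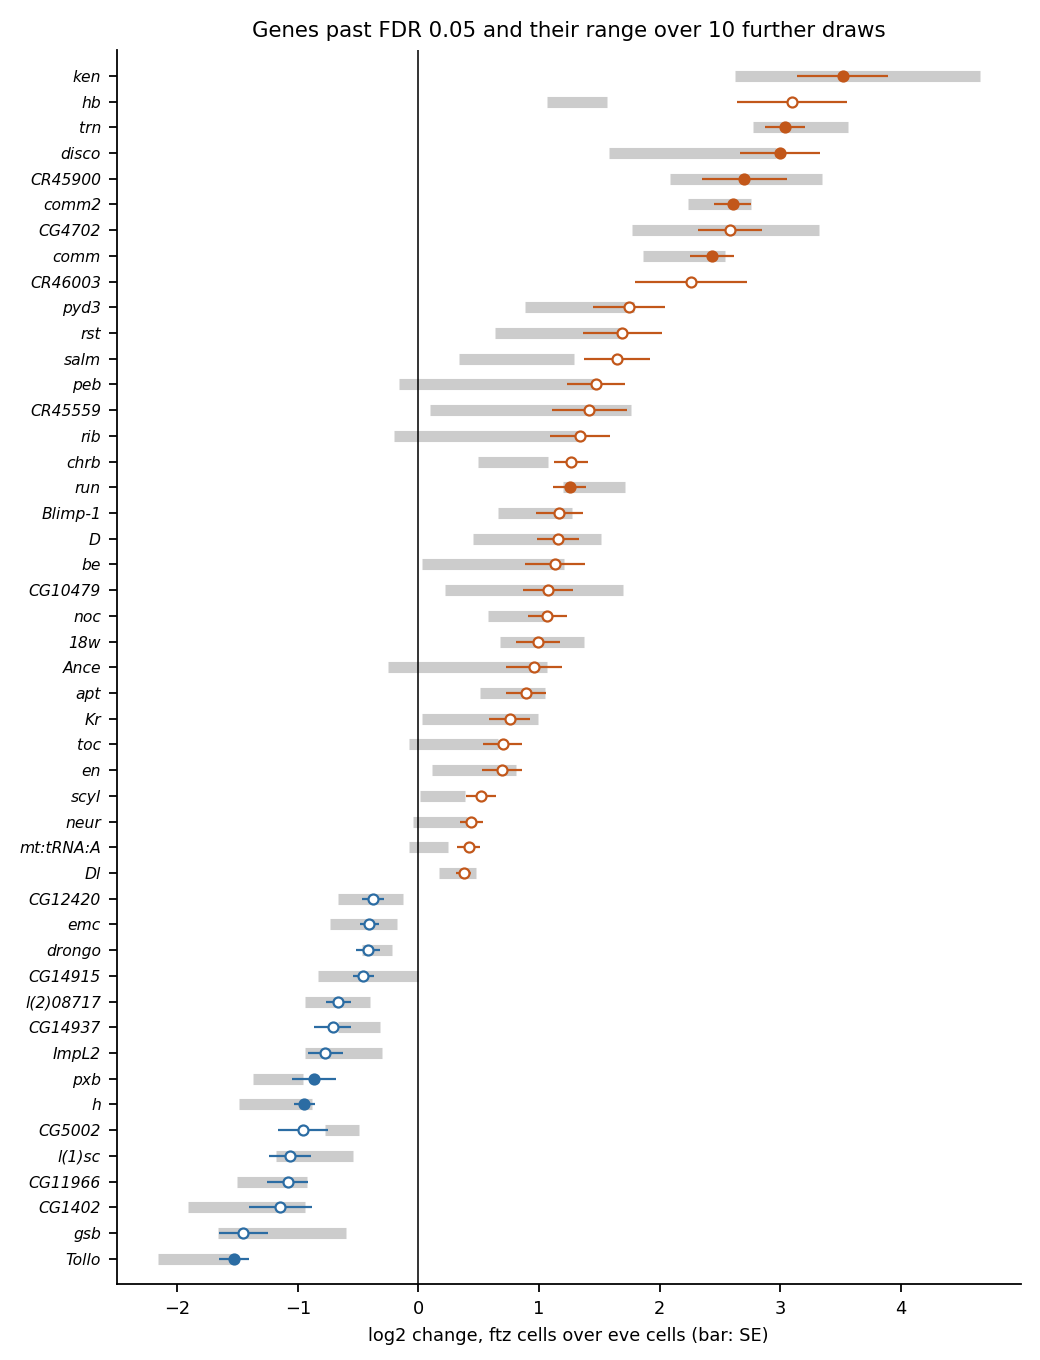
Log2 change (*ftz* minus *eve* cells) of the 47 genes that passed, with its standard error as a black line, from the draw reported here. Grey bars span the values over 10 further draws of the thinning, and filled points mark the 10 genes that passed in all of them. Among these *pxb*, *run* and *comm2* have the narrowest bars. *CR46003* was tested in 1 further draw only.

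The gene with the smallest p encodes a cell surface protein. *trn* (tartan; 3L, 13114271 to 13118077, plus strand), which encodes a leucine-rich repeat membrane protein known to help polarise cells of the extending germ band, had 722, 805 and 1076 CPM as its lowest, median and highest value in *ftz* cells and 41.5, 68.2 and 163 CPM in *eve* cells. The lowest *ftz*-side library thus lay far above the highest *eve*-side library. The change was 3.04 on the log2 scale (SE 0.166, edgeR adjusted p = 3.16e-11), and after thinning 91.0% of *ftz* cells and 24.8% of *eve* cells had a *trn* UMI.

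Commissureless (*comm*), which keeps the receptor Robo off the surface of axons that cross the midline, and its paralog *comm2* moved with *trn*. The genes lie 21661 bases apart on 3L with 2 genes between them (*comm2*, 15697594 to 15699850; *comm*, 15721511 to 15728430, both on the minus strand). *comm2* had 134, 153 and 200.0 CPM in *ftz* cells and 18.1, 28.4 and 39.0 CPM in *eve* cells, or 2.60 higher in *ftz* cells on the log2 scale (SE 0.152, edgeR adjusted p = 6.54e-11). *comm* had 116, 141 and 187 CPM in *ftz* cells and 9.59, 25.5 and 47.1 CPM in *eve* cells, or 2.43 higher on that scale (SE 0.184, edgeR adjusted p = 8.58e-09). For both genes the highest *eve*-side value lay below the lowest *ftz*-side value. A *comm2* UMI was found in 49.5% of *ftz* and 11.6% of *eve* cells, and a *comm* UMI in 42.1% and 9.9%.

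Toll family receptors went in both directions. *Tollo* (3L, 15235619 to 15242832, plus strand), 1 of the Toll receptors that are known to be expressed in stripes and to orient cell intercalation, had 47.4, 55.5 and 74.6 CPM in *ftz* cells and 138, 153 and 289 CPM in *eve* cells. All *eve*-side libraries lay above all *ftz*-side libraries, and the log2 change was -1.53 (SE 0.122, edgeR adjusted p = 1.93e-08), with a UMI in 20.5% of *ftz* and 55.4% of *eve* cells. *18w*, another receptor of this group, was higher in *ftz* cells, at 48.1, 57.1 and 81.6 CPM against 15.7, 29.0 and 41.8 CPM (log2 0.99, SE 0.183, edgeR adjusted p = 0.00356), again with no overlap. *Toll-6* averaged 26.2 CPM in *ftz* and 43.5 CPM in *eve* cells and was lower in *ftz* cells of all 7 libraries, but its log2 change of -0.71 did not pass (SE 0.186, edgeR adjusted p = 0.0827). It passed in 6 of the alternative settings, among them another draw of the thinning (log2 -1.35, edgeR adjusted p = 0.00655). Over the 10 further draws, which do not include that one, *Toll-6* passed in 3 (log2 -1.16 to -0.76). Cells with neither transcript averaged 59.2 CPM of *Toll-6*, and *eve* cells lay above them in 1 of 7 libraries. The teneurin and latrophilin genes of the same list, *Ten-m* (log2 0.12), *Ten-a* (0.28) and *Cirl* (0.39), did not pass. In all, 2 of 7 tested genes of this list were higher in *ftz* cells, 1 in *eve* cells and 4 did not pass, with a median log2 change of 0.27 beside 0.000637 over all genes tested.

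**Figure D2:**
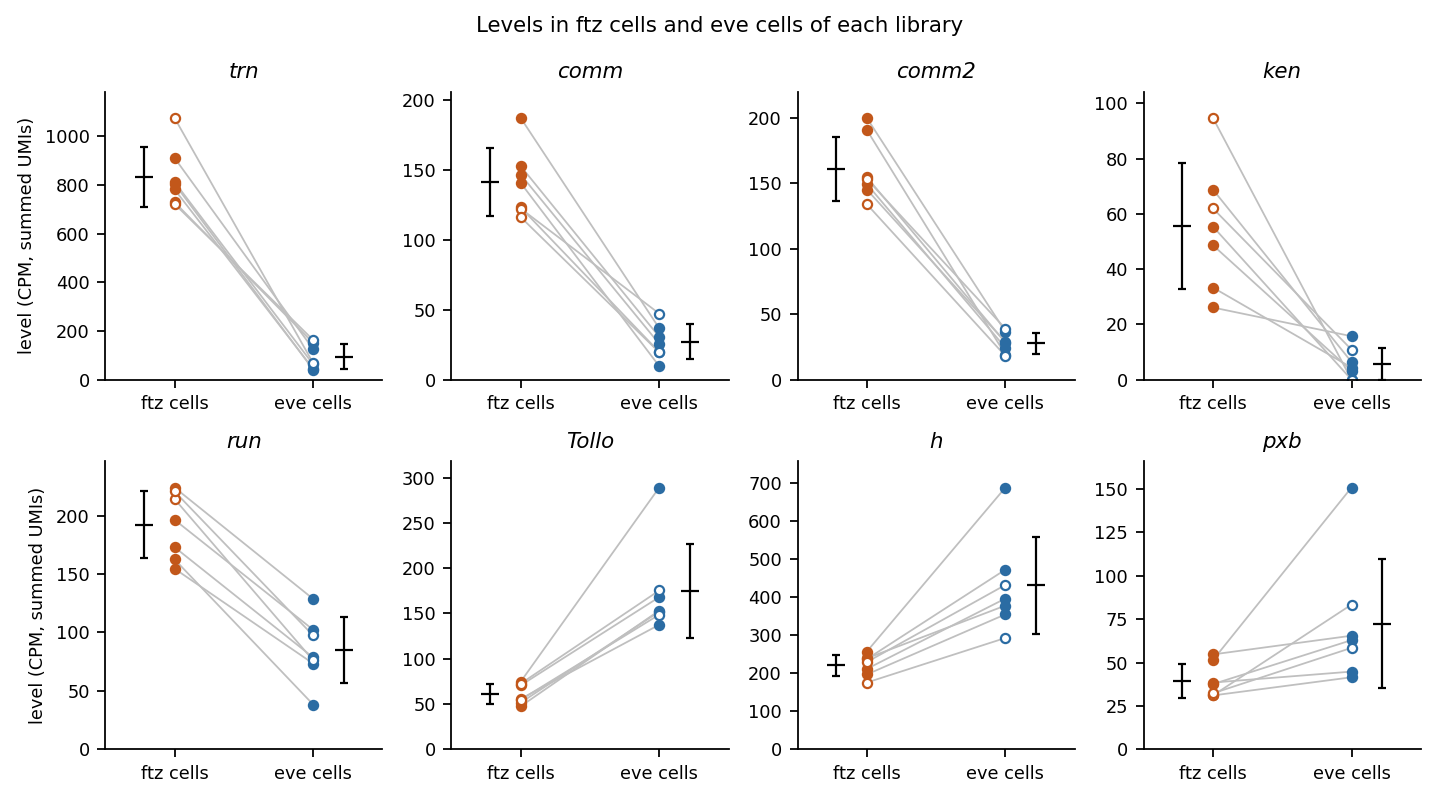
Level in CPM (linear axis) of 8 genes in *ftz* cells and *eve* cells of each library, joined by a grey line per library. Open points are the 2 mixed-species libraries and filled points the 5 single-species libraries, and black marks give the mean ± SD over 7 libraries. *trn*, *comm*, *comm2*, *ken* and *run* are higher on the *ftz* side in every library and *Tollo*, *h* and *pxb* on the *eve* side.

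Among the other pair-rule genes, *run* and *h* passed in opposite directions. *run* (X, 20690670 to 20697321, plus strand), which encodes a Runt-domain transcription factor, had 155, 197 and 224 CPM in *ftz* cells and 38.3, 78.6 and 129 CPM in *eve* cells. Its log2 change was 1.25 (SE 0.140, edgeR adjusted p = 4.15e-06), without overlap. *h* (hairy, listed as *hry* in the annotation; 3L, 8675759 to 8679253, plus strand), a basic helix-loop-helix repressor, had 175, 229 and 256 CPM in *ftz* cells and 292, 396 and 687 CPM in *eve* cells. The log2 change was -0.95 (SE 0.0881, edgeR adjusted p = 2.77e-07), again without overlap, and 51.0% of *ftz* and 72.7% of *eve* cells had an *h* UMI.

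The other 4 pair-rule genes tested did not pass. *odd*, a zinc finger gene, averaged 150.0 CPM in *ftz* and 118.5 CPM in *eve* cells and was higher in *ftz* cells of all 7 libraries (log2 0.39, SE 0.116, edgeR adjusted p = 0.197). The forkhead gene *slp1* averaged 169 and 82.6 CPM (log2 0.84, SE 0.209, edgeR adjusted p = 0.0579). Both depended on the draw: *odd* passed in 8 of the 10 further draws (median log2 0.91) and *slp1* in 6 (median log2 0.85), and *slp1* also passed without replicate 3 (log2 1.20, edgeR adjusted p = 0.00207). The homeodomain gene *prd* averaged 87.1 and 112 CPM (log2 -0.44, SE 0.154, edgeR adjusted p = 0.443), and *opa*, a zinc finger gene, 200.4 and 219 CPM (log2 -0.13, edgeR adjusted p = 0.979). *slp2* was too low to be tested. The relatives of *odd*, *drm* (log2 0.01) and *sob* (-0.73), did not pass in edgeR or DESeq2, and *odd* and *sob* had an unadjusted p under 0.05.

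Segment polarity genes take over from the pair-rule genes and hold the boundaries of each parasegment. Of 10 tested, *en* was higher in *ftz* cells, *gsb* in *eve* cells and 8 did not pass, with a list median of 0.07. *en*, a homeodomain gene of posterior compartments, had 59.4, 109 and 147 CPM in *ftz* cells and 24.0, 51.1 and 119.7 CPM in *eve* cells, with overlapping ranges (log2 0.69, SE 0.163, edgeR adjusted p = 0.0377). It no longer passed without replicate 2, 3, 5, 6 or 7 in turn (edgeR adjusted p = 0.0827 to 0.151), and it passed in 1 of the 10 further draws. *gsb*, a Pax family gene, had 23.3, 30.1 and 41.7 CPM in *ftz* cells and 29.2, 72.0 and 119.6 CPM in *eve* cells, higher on the *eve* side in 6 of 7 libraries (log2 -1.45, SE 0.204, edgeR adjusted p = 0.000161). The signalling genes *hh* (log2 0.14), *wg* (0.35), *ptc* (-0.06) and *ci* (-0.09) did not pass.

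A pair of helix-loop-helix genes of neural development was higher in *eve* cells. *l(1)sc*, a proneural gene of the achaete-scute complex, had 22.8, 27.1 and 43.8 CPM in *ftz* cells and 28.8, 56.7 and 131 CPM in *eve* cells (log2 -1.07, SE 0.174, edgeR adjusted p = 0.000955), and the sides overlapped. *emc*, which encodes an inhibitor of proneural proteins, had 649, 717 and 930.2 CPM against 761, 965 and 1295 CPM, higher on the *eve* side in 6 of 7 libraries (log2 -0.41, SE 0.0753, edgeR adjusted p = 0.00356). Each passed in 4 of the 10 further draws. On the *ftz* side, the Notch ligand gene *Dl* had 699, 849.9 and 1004 CPM against 537, 626 and 772 CPM, higher in all 7 libraries (log2 0.38, SE 0.0622, edgeR adjusted p = 0.00107), and it passed in 2 of the further draws. *neur*, a ubiquitin ligase gene of the same pathway, was higher in *ftz* cells by 0.44 (edgeR adjusted p = 0.0221), but not past the threshold without replicate 2, 4, 5, 6 or 7 in turn (edgeR adjusted p = 0.0506 to 0.168) or in any further draw. *Notch* itself (*N*, log2 -0.14) did not pass.

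**Figure D3:**
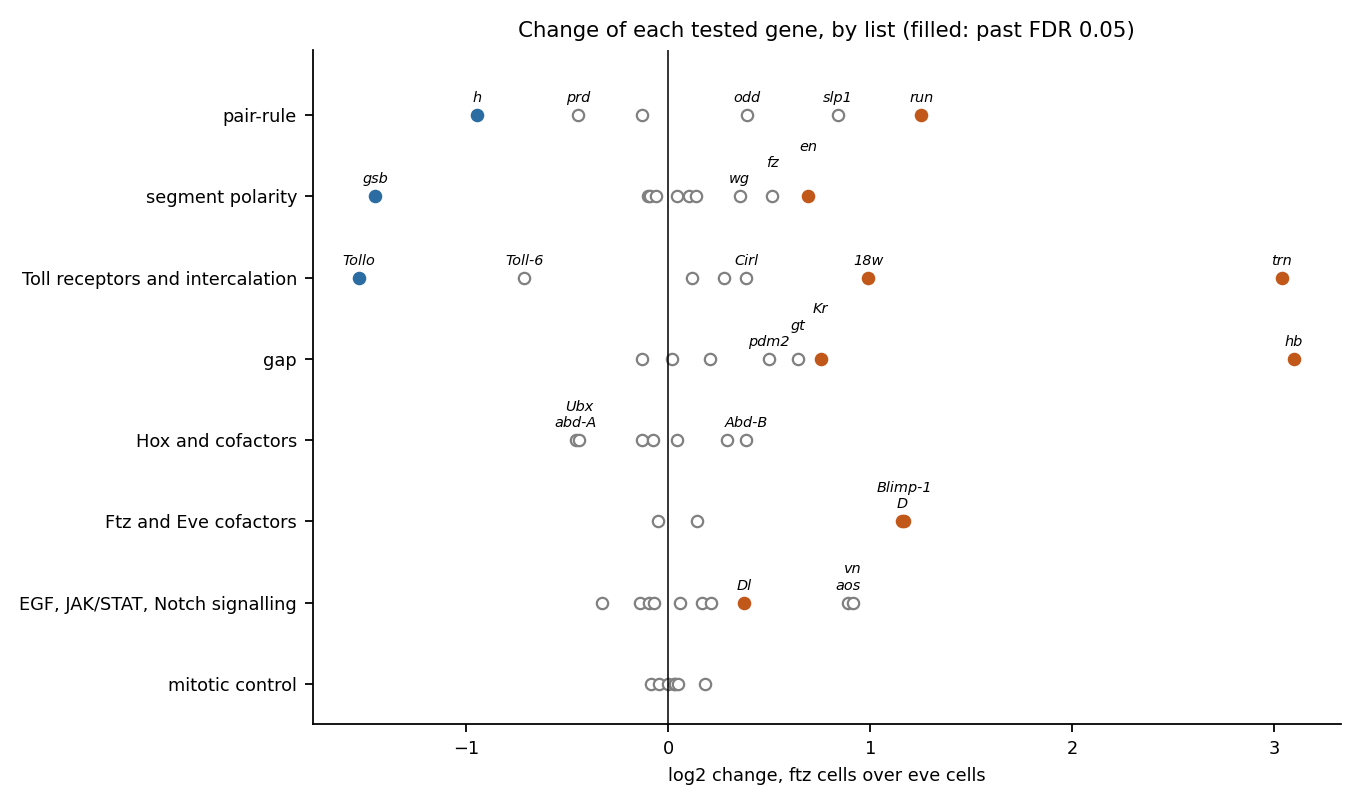
Log2 change (*ftz* minus *eve* cells) of each tested gene in 8 gene lists, 1 point per gene, with filled points for genes that passed at a false discovery rate of 0.05. *trn* and *Tollo* stand at opposite ends of the Toll receptor and intercalation list, *run* and *h* at those of the pair-rule list, while the Hox and mitotic control lists have no filled point.

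Several other transcription factor genes were higher in *ftz* cells, among them *ken*, *disco* and *hb*. *ken* (2R, 23870273 to 23877442, plus strand), which encodes a BTB zinc finger repressor known to act on targets of JAK/STAT signalling, had 26.1, 55.4 and 94.8 CPM in *ftz* cells and 0, 4.36 and 15.7 CPM in *eve* cells. The sides did not overlap, and the log2 change was 3.51 (SE 0.379, edgeR adjusted p = 2.97e-06), or 2.89 without replicate 3. The sums behind it were 775 UMIs in *ftz* and 11 in *eve* cells, and 17.1% and 0.8% of the cells had a UMI. The zinc finger gene *disco* had 16.3, 42.2 and 82.4 CPM in *ftz* cells and 0, 3.19 and 18.1 CPM in *eve* cells (log2 3.00, SE 0.331, edgeR adjusted p = 3.94e-06). That change rests on 12 UMIs in *eve* cells and lies above the values of all 10 further draws (log2 1.58 to 2.96). Cells with neither transcript averaged 44.7 CPM of *disco*, near the mean of 46.1 CPM in *ftz* cells, and *eve* cells lay above them in 0 of 7 libraries. Cells with neither are not trunk cells alone, and which side departs from other trunk cells was not tested. For *ken* they averaged 12.0 CPM, below *ftz* cells in all 7 libraries. The gap gene *hb* had 13.7, 23.7 and 35.2 CPM in *ftz* cells, and in *eve* cells 0 as its lowest and median and 19.5 CPM as its highest value (log2 3.10, SE 0.458, edgeR adjusted p = 0.00031). That value rests on 6 UMIs in *eve* cells, and *hb* passed in none of the 7 further draws in which it was tested (log2 1.07 to 1.57).

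The regulator genes *salm*, *D* and *Blimp-1* were higher in *ftz* cells too, with overlapping sides. The zinc finger gene *salm* had 60.4, 123 and 215 CPM in *ftz* cells and 6.38, 19.5 and 112 CPM in *eve* cells (log2 1.64, SE 0.276, edgeR adjusted p = 0.0012). *D* (Dichaete), a Sox gene known to be needed for segmentation, had 121, 169 and 205 CPM against 35.2, 65.3 and 122 CPM (log2 1.16, SE 0.175, edgeR adjusted p = 0.000421). *Blimp-1*, a zinc finger repressor gene, had 40.8, 85.7 and 155 CPM against 6.55, 44.8 and 58.5 CPM (log2 1.17, SE 0.196, edgeR adjusted p = 0.0012). Of 10 further draws, *salm* passed in 1 (log2 0.34 to 1.29 over all 10), *D* in 4 (0.45 to 1.51) and *Blimp-1* in 7 (0.66 to 1.27).

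Detection of these regulators in *ftz* cells differed with the presence of *ken*. A *salm* UMI was found in 83.2% of the 125 *ftz* cells with a *ken* UMI and in 16.5% of the 606 without, a *D* UMI in 71.2% and 31.0%, a *Blimp-1* UMI in 66.4% and 18%, a *disco* UMI in 39.2% and 6.3%, and an *hb* UMI in 32.8% and 5.9%. The cells without *ken* were the larger class, so they still held 188 of the 277 *ftz* cells with *D* and 109 of the 192 with *Blimp-1*. The Hox genes differed along the same line. *Abd-B*, the most posterior Hox gene, was detected in 50.4% of *ftz* cells with and 10.6% without *ken*, while *Ubx* was detected in 6.4% and 28.1% and *abd-A* in 1.6% and 22.8%. The shares were 91.2% and 90.9% for *trn*, 52.0% and 54.0% for *run* and 40.0% and 42.1% for *odd*. They were 33.6% and 52.8% for *comm2* and 12.8% and 33.3% for *Kr*. All these shares pool the cells of 7 libraries after thinning and are descriptions with no test.

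**Figure D4:**
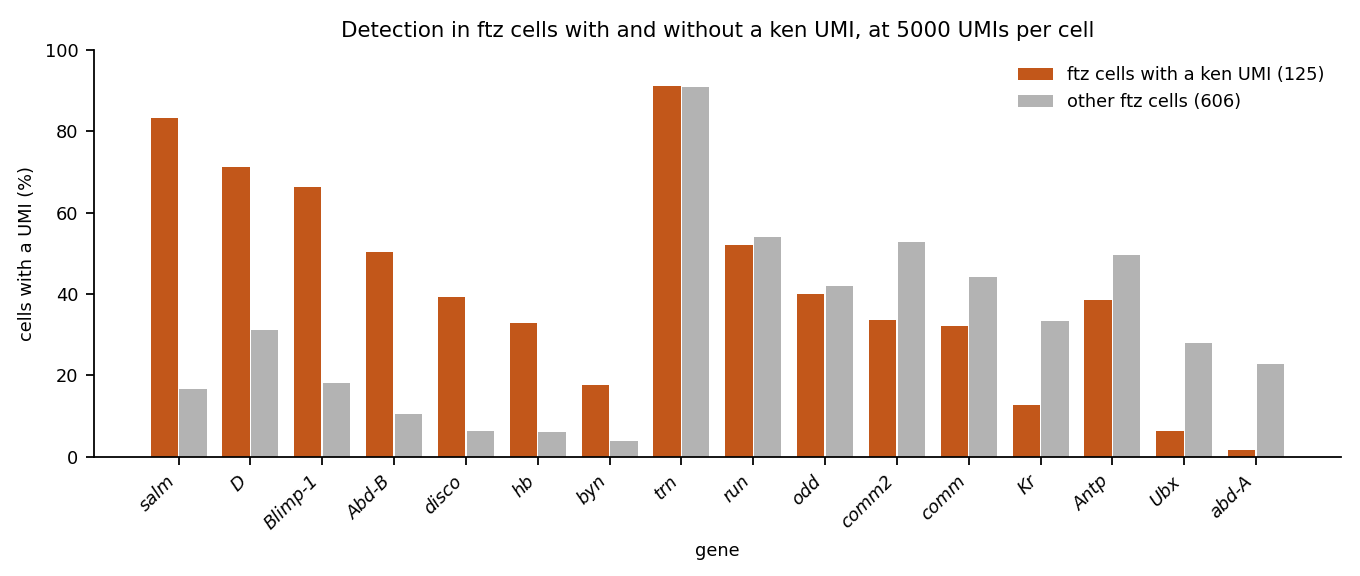
Percent of *ftz* cells (y axis) with a UMI of each of 16 genes, in the 125 cells with a *ken* UMI and the 606 without, after thinning to 5000 UMIs. *salm*, *D*, *Blimp-1* and *Abd-B* are more frequent in cells with *ken*, *Ubx* and *abd-A* in cells without, and *trn* is at about 91% in both.

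Markers of the posterior terminal region and gut, below called posterior markers, were also compared between the sides. Their share of cells did not pass after adjustment, where a class alone at the smallest possible p could not have passed. UMIs of at least 2 of the 7 posterior terminal and gut markers were found in 20.1% ± 3.65 of *ftz* cells and 7.92% ± 6.81 of *eve* cells (SD, n = 7 libraries), higher in *ftz* cells in 7 of 7 libraries (exact two-sided sign-flip permutation p = 0.0156, the smallest that 7 libraries allow, and 0.0938 after Benjamini-Hochberg adjustment over 6 marker classes). The difference of 12.2 percentage points was 7.12 with another draw of the thinning (exact permutation, adjusted p = 0.188) and 4.01 at 3000 UMIs (exact permutation, adjusted p = 0.891). The summed level of the 7 markers was 180 to 351 CPM in *ftz* cells (median 248) and 83.6 to 390 CPM in *eve* cells (median 133), and none of them was at 0 over all libraries of a side. *byn*, the hindgut regulator, had 202 UMIs in *ftz* and 2 in *eve* cells, and *cad* 169 and 3. Of the 4 markers tested, *apt* passed, with 67.7, 77.8 and 97.6 CPM against 25.4, 41.5 and 58.5 CPM and no overlap (log2 0.89, SE 0.164, edgeR adjusted p = 0.00356). *srp* (log2 0.99, edgeR adjusted p = 0.0647), *fkh* (0.86, 0.588) and *Abd-B* (0.39, 0.979) did not. Cells with neither transcript averaged 106 CPM of *apt*, and *ftz* cells (mean 78.8 CPM) lay above them in 0 of 7 libraries. The same held for *srp* and *fkh*, while *Abd-B* was higher in *ftz* cells than in cells with neither in all 7.

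The comparison was therefore repeated on cells without a UMI of any posterior marker, a choice made after the values had been seen, which left 333 *ftz* and 73 *eve* cells in 6 libraries and 29 genes that passed. The 7 markers did not all mark the same cells, so their absence does not remove the posterior end alone. *trn* (log2 3.24), *comm2* (2.78), *comm* (2.41), *run* (1.5), *Tollo* (-2.14), *h* (-1.09) and *gsb* (-1.69) passed in this repeat too. *D* (0.30, edgeR adjusted p = 0.965), *Blimp-1* (0.51, 0.958), *salm* (0.91, 0.748), *en* (0.93, 0.151) and *l(1)sc* (-0.69, 0.714) did not. *ken*, *hb*, *disco* and *CR45900* were too low there to be tested.

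A pair of non-coding genes beside *ftz* was higher in *ftz* cells than in *eve* cells. *CR45900* (3R, 6858839 to 6859192, minus strand) lies 5132 bases from *ftz*, with 0 annotated genes between them. It had 24.6, 27.8 and 33.3 CPM in *ftz* cells and 0, 3.19 and 9.59 CPM in *eve* cells, without overlap (log2 2.70, SE 0.353, edgeR adjusted p = 5.32e-05). *CR45559* (3R, 6892918 to 6893462, minus strand), 26674 bases from *ftz* on its other side, had 18.4, 42.4 and 84.0 CPM against 0, 19.2 and 57.7 CPM, higher in *ftz* cells in 6 of 7 libraries (log2 1.42, SE 0.307, edgeR adjusted p = 0.0191). It did not pass without replicate 3 (1.32, edgeR adjusted p = 0.206) or replicate 4 (1.21, edgeR adjusted p = 0.106), and it passed in 3 of the 10 further draws (log2 0.092 to 1.76). Between *CR45559* and *ftz* lies 1 annotated gene. Cells with neither transcript averaged 45.1 CPM of *CR45559*, near the 45.5 CPM of *ftz* cells. They averaged 4.68 CPM of *CR45900*, below the 28.1 CPM of *ftz* cells in all 7 libraries. Whether the deposited counts kept the strand is not given in the sources used here.

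The other genes that were higher in *ftz* cells had smaller or less even changes. *CG4702* had 24.1, 50.4 and 90.6 CPM in *ftz* cells and 0, 10.4 and 16 CPM in *eve* cells, with no overlap (log2 2.58, SE 0.266, edgeR adjusted p = 1.54e-06). *pyd3*, an enzyme gene of pyrimidine breakdown, had 23.5, 31.3 and 47.4 CPM against 2.18, 5.24 and 21.8 CPM, also without overlap (log2 1.75, SE 0.296, edgeR adjusted p = 0.0013). *chrb* and *scyl* encode related inhibitors of TOR signalling and were both higher in *ftz* cells. *chrb* had 199, 254 and 441 CPM against 48, 122 and 283 CPM (log2 1.26, SE 0.142, edgeR adjusted p = 4.20e-06). It passed in 7 of the 10 further draws, with log2 changes from 0.50 to 1.07. *scyl* changed by 0.52 (edgeR adjusted p = 0.039) and did not pass without replicate 2, 3, 4 or 7 in turn (edgeR adjusted p = 0.0974 to 0.192). The zinc finger gene *noc* had 177, 235 and 261 CPM against 39.0, 91.7 and 236 CPM and was higher in *ftz* cells of all 7 libraries (log2 1.07, SE 0.164, edgeR adjusted p = 0.000459).

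The gap gene *Kr* had 73.8, 105 and 150.5 CPM in *ftz* cells and 9.74, 62.9 and 138 CPM in *eve* cells (log2 0.75, SE 0.171, edgeR adjusted p = 0.0267). It did not pass without replicate 3, 4, 5 or 6 in turn (edgeR adjusted p = 0.0526 to 0.162), and it passed in 2 of the 10 further draws. With *hb* it made up the 2 of 7 tested gap genes that passed, both in the *ftz* direction, and *gt* (log2 0.64), *kni* (0.02) and *knrl* (-0.13) did not. *peb* (log2 1.47, edgeR adjusted p = 0.000955) and *Ance* (0.96, 0.0468), which are expressed in the dorsal ectoderm and amnioserosa, were the 2 of 10 markers of that list that passed. Each passed in 1 of the 10 further draws, with log2 changes from -0.16 to 1.48 for *peb* and from -0.25 to 1.07 for *Ance*. *Ance* was higher in *ftz* cells in 5 of 7 libraries and did not pass without replicate 3, 4, 6 or 7 in turn (edgeR adjusted p = 0.101 to 0.45). The transcription factor gene *rib* (1.34) passed in every fit that left out 1 library but in 2 of the 10 further draws, where its log2 change ran from -0.21 to 1.37, and the adhesion gene *rst* (1.69) did not pass without replicate 3 (1.07, edgeR adjusted p = 0.152). The long non-coding *CR46003* changed by 2.26 (SE 0.461, edgeR adjusted p = 0.0103), from 282 UMIs in *ftz* and 11 in *eve* cells, and overlaps other genes on both strands. The remaining *ftz*-side genes were *CG10479* (1.08), *be* (1.13), *toc* (0.70) and *mt:tRNA:A* (0.42), and the last 3 passed in none of the further draws and lost the call without 1 of several libraries (edgeR adjusted p up to 0.357).

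Among the genes that were higher in *eve* cells, *CG11966* (named *ich* in the annotation) had 27.8, 41.5 and 55.1 CPM in *ftz* cells and 58.9, 95.2 and 175 CPM in *eve* cells, without overlap (log2 -1.08, SE 0.170, edgeR adjusted p = 0.000555). *pxb* had 31.0, 37.5 and 54.7 CPM against 41.5, 62.9 and 151 CPM (log2 -0.87, SE 0.182, edgeR adjusted p = 0.0134). Replicate 3 held the highest *eve*-side value of *pxb*, and the log2 change without it was -0.62 (edgeR adjusted p = 0.357), yet *pxb* passed in all 10 further draws (log2 -1.37 to -0.96). *ImpL2*, which encodes a secreted protein that binds insulin-like peptides, had 187, 237 and 319 CPM against 244, 329.5 and 716 CPM, higher on the *eve* side in 6 of 7 libraries (log2 -0.77, SE 0.143, edgeR adjusted p = 0.00356). *l(2)08717* had 104, 143 and 220 CPM against 107, 253 and 352 CPM, higher in *eve* cells of all 7 libraries (log2 -0.66, SE 0.104, edgeR adjusted p = 0.000555). The rest were *CG1402* (-1.15), *CG14937* (-0.71), *CG14915* (-0.46), *drongo* (-0.42), *CG12420* (-0.38) and *CG5002* (-0.95). Of these, *CG14915* passed in every fit without 1 library but in 4 of the 10 further draws (log2 -0.84 to -0.004), and the other 5 did not (edgeR adjusted p = 0.0537 to 0.281 in the fits without 1 library where they failed).

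Levels in the remaining cells were set beside those of both sides. These values share the cells of each library and are given without a test. Cells with neither transcript are not a class of trunk cells alone. The head marker *oc* averaged 8.08, 42.3 and 5.71 CPM in *ftz* cells, cells with neither and *eve* cells. In this order *fkh* averaged 15.7, 74.3 and 8.24 CPM and the pole cell marker *pgc* 87.7, 291 and 80.4 CPM. *cad* (12.1, 4.57 and 0.643 CPM) and *Abd-B* (75.8, 33.6 and 79.6 CPM) were not highest in cells with neither. In all 7 libraries *trn*, *comm* and *comm2* were higher in *ftz* cells and lower in *eve* cells than in cells with neither transcript: *trn* averaged 834, 268 and 93.8 CPM in *ftz* cells, cells with neither and *eve* cells. *Tollo* had the opposite order in all 7 libraries, at 60.9, 91.0 and 175 CPM. *h* was high on the *eve* side alone, at 430.1 CPM against 205 CPM in cells with neither and 220.5 CPM in *ftz* cells. *run* averaged 192, 104 and 85.0 CPM in the same order.

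Other segmentation genes set both sides apart from the cells with neither transcript. Whether this contrast holds among trunk cells alone was not tested. *en* averaged 100.04 CPM in *ftz* cells, 58.4 CPM in *eve* cells and 22.5 CPM in cells with neither, and both sides were above the last in all 7 libraries. The same held for *odd* (150.0, 118.5 and 59.8 CPM) and *opa* (200.4, 219 and 107 CPM). *slp1* was lower on both sides, at 169 CPM in *ftz* cells and 82.6 CPM in *eve* cells against 269 CPM in cells with neither, in all 7 libraries. The 113 cells with UMIs of both *ftz* and *eve* had intermediate means of *trn* (523.5 CPM), *Tollo* (99.6 CPM) and *h* (304 CPM), with a mean of *run* (181 CPM) near that of *ftz* cells. Around the threshold of the rule, *trn* averaged 502.1 CPM in cells with 1 *ftz* UMI, just outside the *ftz* side, and 701.6 CPM in those with exactly 2.

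**Figure D5:**
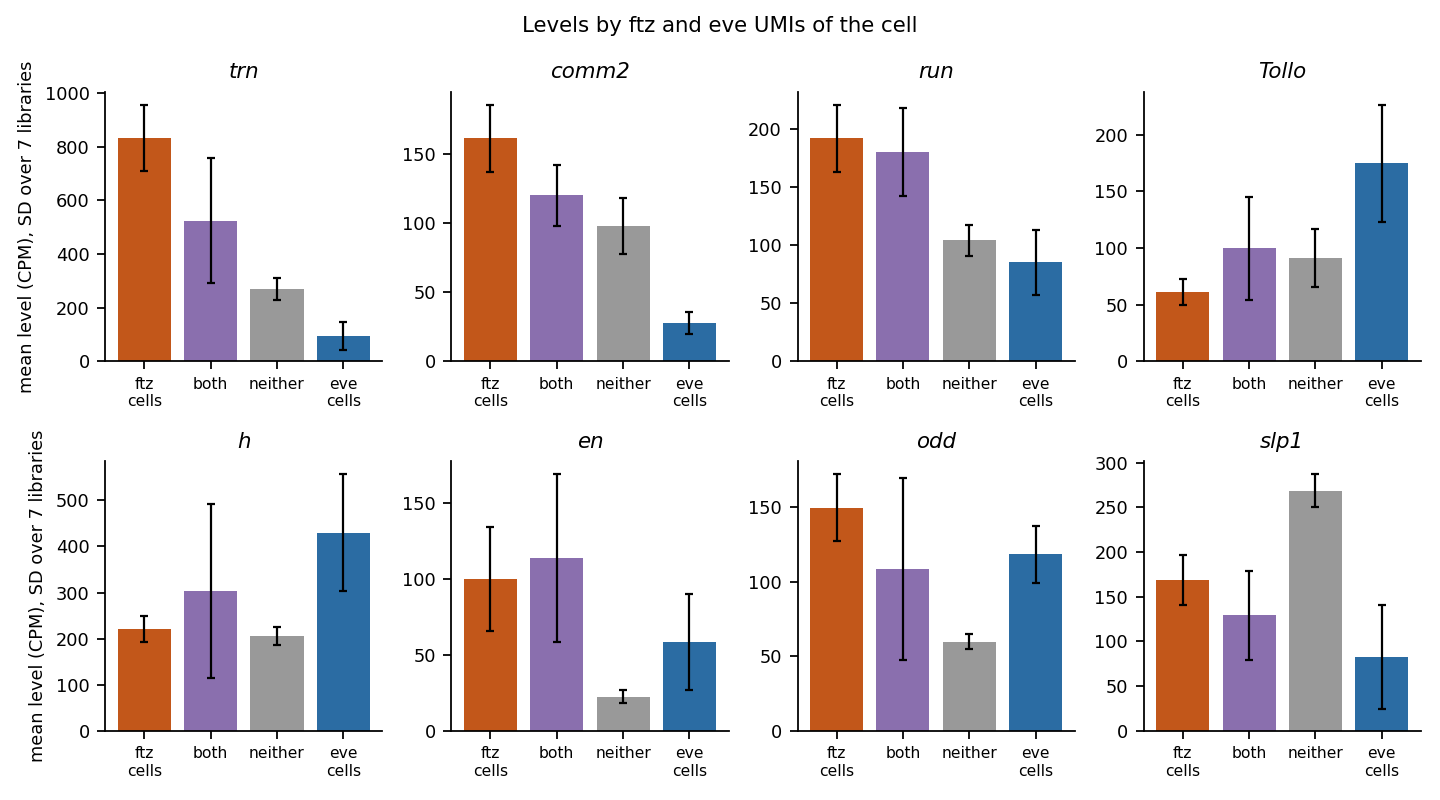
Mean level in CPM (linear axis from 0) with its SD over 7 libraries for 8 genes in *ftz* cells, cells with UMIs of both genes, cells with neither and *eve* cells. *trn* and *comm2* are highest in *ftz* cells and lowest in *eve* cells, *Tollo* and *h* are highest in *eve* cells, *en* and *odd* are lowest and *slp1* highest in cells with neither.

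Several gene groups gave few or no calls between the sides. Of 7 tested Hox genes and cofactors, 0 passed in edgeR and in DESeq2 and 3 had an unadjusted p under 0.05: *Antp* averaged 229 and 179 CPM (log2 0.29), *Ubx* 81.3 and 108 CPM (-0.44) and *abd-A* 57.7 and 73.8 CPM (-0.46). Over the 10 further draws *Antp* and *abd-A* each passed in 3, *Abd-B* in 1 and *Ubx*, *hth*, *exd* and *tsh* in 0. *Ubx* passed on the single-species libraries alone (log2 -0.58, edgeR adjusted p = 0.0262). Of the 7 tested genes of mitotic control, 0 passed in either tool and 0 had an unadjusted p under 0.05, among them the phosphatase gene *stg* (log2 0.18) and *trbl* (0.05). Of the cofactor list, *D* and *Blimp-1* passed and the corepressor genes *gro* (0.14) and *Rpd3* (-0.05) did not, while the nuclear receptor gene *ftz-f1*, a known partner of Ftz, had 18 and 1 UMIs and was not tested. In the EGF, JAK/STAT and Notch list *Dl* alone of 10 passed, and the EGF pathway genes *aos* (0.89, edgeR adjusted p = 0.262) and *vn* (0.91, edgeR adjusted p = 0.269) did not. All lists were read against the 0.927% of genes that passed over the whole table.

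Marker lists gave the make-up of both sides along the dorsoventral axis. Of 7 mesoderm markers, 0 passed in edgeR or DESeq2 and 1 had an unadjusted p under 0.05 (*stumps*, log2 0.67), and of 7 tested markers of the ventral neurogenic ectoderm 0 passed in either tool and 3 had an unadjusted p under 0.05 (*sog*, *sca* and *vn*, log2 0.36 to 0.91). The summed level of the mesoderm markers was 1051 to 1862 CPM in *ftz* cells (median 1317) and 304 to 2231 CPM in *eve* cells (median 1473), and 39.0% and 33.6% of the cells had UMIs of at least 2 of them (exact sign-flip permutation p = 0.525 after adjustment). For the ventral neurogenic markers the summed levels were 631 to 1283 and 562 to 895 CPM, and the shares 43.4% and 32.5% (exact permutation, adjusted p = 0.156). For the dorsal markers they were 382 to 767 and 163 to 879 CPM, and 32.4% and 28.5% (exact permutation, adjusted p = 0.525). Head markers were nearly absent from both sides, at 11.1 to 32.8 and 0 to 32.6 CPM summed, with shares of 0.498% and 0.446% (exact permutation, adjusted p = 1). Pole cell markers were at 37.7 to 292 and 9.74 to 635 CPM, with shares of 4.72% and 0.952% (exact permutation, adjusted p = 0.156). No marker of any list was at 0 over all libraries of a side.

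Depth per cell did not separate the sides beyond the spread between libraries. The library medians averaged 12643 ± 2528 UMIs in *ftz* cells and 15769 ± 7557 in *eve* cells (SD, n = 7), a mean log2 ratio of -0.21 (exact two-sided sign-flip permutation p = 0.359). After thinning, *ftz* cells held a median of 1368.4 ± 26.5 genes and *eve* cells 1388.1 ± 23.5, with fewer in *ftz* cells in 6 of 7 libraries (difference -19.6, exact permutation p = 0.0469). At 10000 UMIs per cell that difference had the opposite sign (21.5).

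Replicates 1 and 2 were compared with replicates 3 to 7, since *D. virilis* cells shared the libraries. The main changes had 1 direction in both kinds of library. On the mixed-species and the single-species libraries alone, *trn* changed by 2.60 and 3.15, *comm2* by 2.50 and 2.62, *run* by 1.36 and 1.22, *Tollo* by -1.39 and -1.58, *h* by -0.88 and -0.98 and *ken* by 3.14 and 3.63. *comm* did not pass on the mixed-species libraries alone (1.62, edgeR adjusted p = 0.075; 2.63 on the other 5). Less even were *gsb* (-0.44 and -1.67) and *rst* (0.66 and 2.19), which did not pass on the mixed-species libraries alone either. *CG5002* turned sign (0.49 and -1.17). A test of the difference between the kinds called 4 of 5069 genes (0.0789%; 285 at an unadjusted p under 0.05), none of them among the 47.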

How the data were processed

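The deposited Drop-seq values are raw UMI counts, 1 row per gene and 1 column per barcode, with no normalisation by the authors. Per the submitters' processing notes STAR, HTSeq and the build BDGP6 were used; their roles and settings are not given in the sources used here. Libraries held 8855169 to 21429520 UMIs. Cells were thinned by a multivariate hypergeometric draw with a fixed seed. No doublet caller was run.

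Full counts of the cells on each side were summed per library, and the sums were tested with edgeR 4.0.16 in R 4.3.3 (filterByExpr, TMM scaling, quasi-likelihood test, two-sided, library as block, Benjamini-Hochberg adjustment over 5069 genes). The block pairs both sides of 1 library. Each standard error is the log2 change over the root of its F value. Shares and per-cell medians were compared with exact sign-flip permutation tests over 7 libraries. DESeq2 1.42.0, other scalings, filters, gates, depths and purities and left-out libraries were alternatives. The test was checked on simulated counts. Python 3.11.15 was used with numpy 2.4.6, scipy 1.17.1, pandas 2.3.3 and matplotlib 3.10.9.

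The sides, the gene lists and the markers were chosen with earlier results of these data known. The naming rule took, in each direction, the 10 genes past the threshold with the largest change, 1 direction in all 7 libraries and at least 10 CPM on the higher side, besides the list genes. Other genes that passed were added after their values had been seen. Of 15600 genes, 11701 were placed on BDGP6.54 by symbol and 3814 by synonym, for position and neighbours only.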

Additional observations from a re-analysis of the deposited data

Results flagged for a closer look

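Over 112 sets of 7 library values, 13 held a library whose gap to the nearest other library was over 0.568 of the range, where chance gives about 1 in 20. Among *eve*-side levels, replicate 1 was highest for *chrb* (283 CPM; 48 to 131 in the others) and *l(1)sc* (130.6; 28.8 to 65.0). Replicate 2, with 7 *eve* cells, was highest for *hb* (19.5; 0 to 3.48) and *toc* (107; 32.0 to 57.7). Replicate 3 was highest for *Tollo* (289; 138 to 175) and *pxb* (151; 41.5 to 83.4), and replicate 5 for *CG14937* (131; 51.1 to 83.2). On the *ftz* side, replicate 1 was highest for *pyd3* (47.4 CPM; 23.5 to 33.2) and replicate 2 lowest for *CG5002* (27.8; 33.3 to 37.2). Replicate 6 had the largest share of *ftz* cells (23.4%; 17.7 to 19.5% in the others).

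Among marker shares of *eve* cells, replicate 2 had 14.3% with ventral neurogenic markers (32 to 40% in the others), replicate 3 had 3.125% with head markers and replicate 6 had 6.67% with pole cell markers, both at 0 in the others. Each of these shares is 1 cell of its library.

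The change between the sides differed between mixed-species and single-species libraries for 4 genes in edgeR's interaction test. The difference in log2 change, mixed-species minus single-species, was 0.62 for *CG13427* (adjusted p = 0.0246), 0.46 for *CR43887* (0.0162), -1.22 for *CR45874* (0.0167) and -0.54 for *mt:ATPase6* (0.0121).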

How the results depend on the processing

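*trn*, *comm2*, *run* and *Tollo* passed in all 25 alternative settings run on them and *ken* in all 23 in which it was tested. *comm* was lost on the mixed-species libraries alone, and *h* in the cells of the authors' chosen table (log2 -1.05, edgeR adjusted p = 0.0516, 3 libraries). The count of genes that passed, 47 as reported, moved to 109 with no filter on low counts, 72 with a gate of at least 1 UMI, 29 with no replicate block, 25 each with a gate of at least 3 UMIs (3 libraries), thinning to 3000 UMIs (6 libraries) or sums of thinned counts, 26 with another seed, 13 in the chosen table (3 libraries), 29 without posterior marker UMIs and 12 on the mixed-species libraries alone. It was 35 to 54 without 1 library each, and 16 of the 47 genes lost their call in at least 1 of those fits; DESeq2 called 42, of which 41 were shared. Signs turned for *CG12420* (0.020) and *be* (-0.015) at 3000 UMIs, *be* (-0.022) at 10000 UMIs, *drongo* (0.094) and *wg* (-1.99) with the gate of 3, and *CG5002* (0.49) and *Ilp4* (-0.67) on the mixed-species libraries, and over the 10 further draws for *Ance*, *rib*, *peb*, *neur*, *toc* and *mt:tRNA:A* (lowest values -0.25, -0.21, -0.16, -0.05, -0.08 and -0.08). Of 75 list genes that did not pass, 24 passed in some setting. The kinds of library differed for 25 genes, not 4, with no filter. The difference in genes per cell was 21.5 at 10000 UMIs. It was no longer past the threshold at 3000 UMIs (-20.1) and with another seed (-4.5). With the gate of 3 it was -67.3, but 3 libraries cannot give an exact permutation p under 0.25, so that setting could not pass. Without 1 library each it was -23.5 to -14.75. It passed only without replicate 3 (-23.5, exact permutation p = 0.0312, the smallest that 6 libraries allow). The causes were not tested. The 121 *eve* cells limit the depth of their side.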

Other observations

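Within the *eve* side, *gsb* marked a set of cells. Of 33 *eve* cells with a *gsb* UMI, 48.5% had an *slp1* UMI, 60.6% a *prd* UMI, 42.4% an *en* UMI and 72.7% a *Tollo* UMI, against 14.8%, 31.8%, 20.5% and 48.9% of the 88 without *gsb*. A *chrb* UMI was seen in 21.2% and 48.9%. Within the *ftz* side, *en* was detected in 17% of cells with an *odd* UMI and 36.4% of those without, and in 19.0% of cells with an *h* UMI and 38% of those without. These shares pool 7 libraries and were not tested.

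The authors' table of 1297 chosen cells held 246 of the 731 *ftz* cells and 54 of the 121 *eve* cells. Barcode names in that table end in a number whose meaning is not given. The numbers 3 and 4, the most common in the table, took 137 and 62 of the chosen *ftz* cells and 34 and 16 of the chosen *eve* cells. The number 8 took 33 *ftz* cells and 0 *eve* cells. Its 66 cells had summed levels of 280 CPM for *ken*, 657 CPM for *salm*, 241 CPM for *Abd-B* and 179 CPM for *byn*. Among the posterior markers, the 49 cells with the number 2 had 326 CPM of *hkb*, 276 CPM of *fkh*, 273 CPM of *srp* and 147 CPM of *apt*. The same cells had 0 CPM of *byn*, 0.831 CPM of *cad* and 9.14 CPM of *Abd-B*.

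Genes outside the 47 that passed in at least 5 of the 10 further draws were *odd*, *slp1*, *dpn* (median log2 0.93) and *SNCF* (0.51), higher in *ftz* cells, and *Alh* (-0.78) and *CG4004* (-0.52), higher in *eve* cells.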
